A study of Mus musculus with 6 samples.

Results

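The protocadherin genes were followed in RNA-seq counts from mouse hippocampus. Members were all protein-coding genes whose symbol starts with Pcdh and that had at least 10 counts summed over the 6 libraries. This rule found 36 genes among 20506 genes with that many counts and 37315 identifiers listed. They comprised 22 genes of the beta cluster, 12 non-clustered genes, 1 identifier of the alpha cluster and 1 identifier of the gamma cluster.

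Protocadherins are cell adhesion proteins with cadherin repeats outside the cell, and the brain is where the family is richest. The clustered genes lie in a row on 1 chromosome, and each neuron switches on a small set of their promoters with the help of the factor CTCF and the cohesin ring, so that neurons carry different surface labels and avoid contacts with their own branches. In the alpha and gamma clusters a variable first exon is spliced to constant exons shared by the whole cluster, whereas each beta gene is a single exon with no constant part. The non-clustered protocadherins are ordinary genes outside these clusters, most of them grouped as delta-1 or delta-2 by the motifs of their cytoplasmic tails. Pcdh1 and Pcdh12 lie on the same chromosome as the clusters.

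All mice were 4 weeks old and on a C57BL/6J background, and each group had 1 library. In the Nestin-Cre pair, mice homozygous for a floxed Prrc2a allele (f/f) were compared with f/f;Nestin-Cre mice, in which the recombinase acts in neural progenitors and all their progeny. The Olig2-Cre pair set another f/f library against f/f;Olig2-Cre, where recombination is limited to the Olig2 lineage, chiefly oligodendroglia. Cre is driven there by the endogenous Olig2 promoter, and the study reports that this leaves the mice haploinsufficient for Olig2. The f/f control carries no Cre, so deletion of Prrc2a and reduced Olig2 cannot be told apart in this pair. The study also had Olig2-Cre mice heterozygous for the floxed allele, and reports Olig2 and myelin-related genes reduced in f/f;Olig2-Cre with these included. No such library is among the 6. In the Nestin-Cre pair, deletion and the Cre transgene likewise cannot be told apart. The Fto pair set wild-type mice (WT) against mice with an Fto transgene (Fto Tg), introduced with a lentivirus and driven by the broadly active ubiquitin C promoter. Prrc2a binds N6-methyladenosine in RNA, and Fto removes this mark. Both f/f groups carried the floxed allele without Cre, and whether tissue of several mice was pooled was not given in the sources used here. The question asked of each pair was whether levels of the beta genes, and of the other classes, differed with the deletion or the transgene.

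Total counts lay between 18616540 (f/f;Olig2-Cre) and 35482589 (f/f of the Nestin-Cre pair), and 3 counts, taken as the least a library can show, equalled 0.0846 to 0.161 CPM, the usual scaling of counts by the library total. Prrc2a had 434 CPM in the f/f library and 184 CPM in f/f;Nestin-Cre, against 389 and 346 CPM in the Olig2-Cre pair, and Fto had 158 CPM in WT and 354 CPM in Fto Tg. Markers of hippocampal neurons summed to 6416 to 8410 CPM. The f/f;Nestin-Cre library stood apart, with 26.2% of its counts in mitochondrial genes against 7.97% to 8.86% elsewhere. The median log2 ratio of all genes in that pair was -0.72, so its changes are also given relative to this shift. It was -0.00 and -0.01 in the Olig2-Cre and Fto pairs. Tissue RNA was sequenced in bulk, so fewer cells of a type and less RNA per cell cannot be told apart.

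The count tables used here held all 22 beta identifiers and all 12 non-clustered identifiers of the GENCODE M21 annotation, but 1 of 14 alpha identifiers and 1 of 21 gamma identifiers. These are ENSMUSG00000007440, named Pcdha11 in that annotation, and ENSMUSG00000023036, named Pcdhgc4. Their levels are therefore given as those of the alpha and the gamma identifier, and single alpha or gamma genes could not be followed. What the gene models of Ensembl release 68, used for counting, spanned for these 2 identifiers is not given in the sources used here.

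The beta cluster covers chr18:37264938-37524479 (GRCm38), with all genes on the plus strand. Because reads on more than 1 listed gene were not counted, reads on the stretch where Pcdhb21 and Pcdhb22, the last 2 genes, overlap in GENCODE M21 would be lost to both. Of the stretches of 100 bases in Pcdhb12, 62.3% also lie in Gm37446, an antisense gene not analysed here. Counts were made without strand, so reads of Pcdhb12 and of this gene cannot be told apart. Pcdh7 (24.6%, with 4932441J04Rik) and Pcdh8 (7.63%, with Gm9748) share sequence with antisense genes in the same way. In every other beta or non-clustered member at most 2.31% of such stretches occurred elsewhere, apart from 7.73% in Pcdhb21 and 5.47% in Pcdhb22.

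Beta genes were weakly expressed. Scaled by exon length, the mean over the 3 control libraries had a median of 1.16 RPKM (CPM per kilobase of exon) over the 22 beta genes, with a range of 0.0265 to 3.45, against 8.45 RPKM over the 12 non-clustered genes, with a range of 0.0835 to 37.1. Pcdhb9 led the beta cluster with 3.45 ± 0.0632 RPKM (SD, n = 3 control libraries), followed by Pcdhb20 with 3.19 ± 0.483 RPKM and Pcdhb17 with 2.81 ± 0.402 RPKM. Pcdhb9 and Pcdhb20 differed by less than the spread of Pcdhb20. At the other end Pcdhb1, the first gene of the cluster, had 12 counts over all 6 libraries and was too low to be tested in any pair. Among the non-clustered genes, Pcdh1, a delta-1 protein best known from airway epithelium, stood highest at 37.1 ± 7.47 RPKM. Pcdh12, an adhesion protein of endothelium, stood lowest at 0.0835 ± 0.0456 RPKM.

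**Figure D1:**
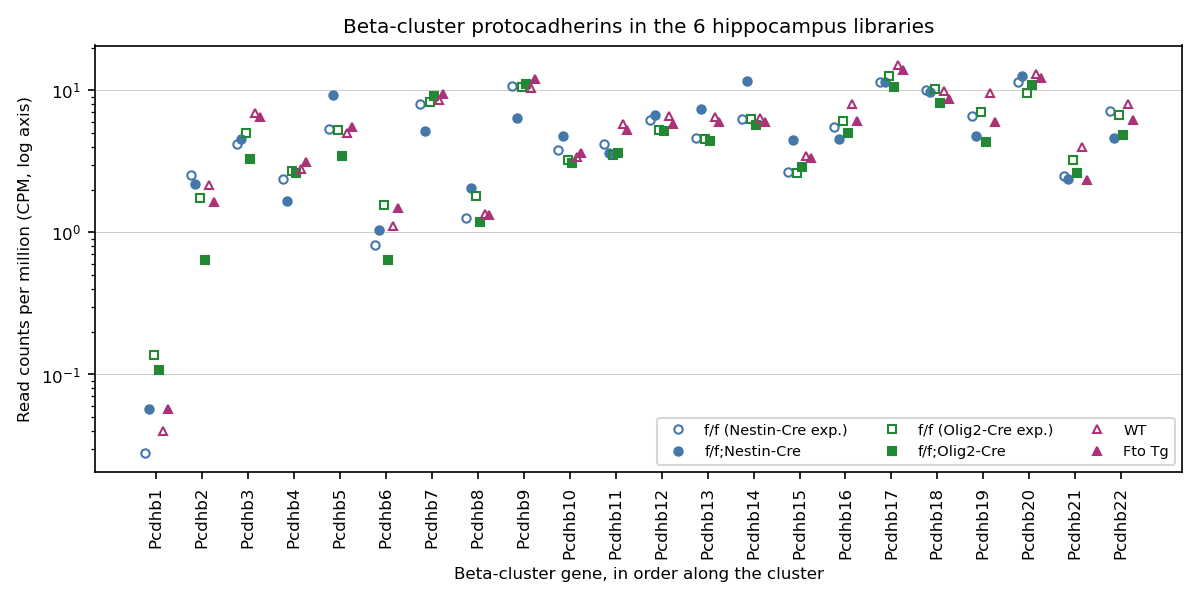
CPM (log axis) of the 22 beta-cluster genes in order along the cluster, 1 point for each of the 6 libraries, with open symbols for controls and filled symbols for the altered library of the same experiment. Pcdhb5 and Pcdhb14 are highest in f/f;Nestin-Cre (9.29 and 11.6 CPM), and Pcdhb19 is lowest in f/f;Olig2-Cre (4.30 CPM).

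Summed over its genes, the beta cluster took fewer counts than the alpha identifier alone, 0.731 to 0.797 per alpha count in the controls. Its sum was 118, 118 and 138 CPM in the controls (f/f of the Nestin-Cre pair, f/f of the Olig2-Cre pair and WT), a mean of 125 ± 11.5 CPM (SD, n = 3), against 162 ± 10.4 CPM for the alpha identifier, 546 ± 24.3 CPM for the gamma identifier and 997 ± 48.0 CPM for the 12 non-clustered genes. The beta sum was 121 CPM (95% Wilson interval 117 to 125) in f/f;Nestin-Cre, 104 CPM (99.0 to 108) in f/f;Olig2-Cre and 127 CPM (123 to 130) in Fto Tg. Of these only the f/f;Olig2-Cre value lay outside the range of the controls, below it. Such intervals, given in parentheses after single CPM values throughout, cover counting error only. The gamma identifier stood at 313 CPM in f/f;Nestin-Cre and at 510.1 to 571 CPM in the other 5 libraries, so that the beta sum per gamma count was 0.387 in that library and 0.190 to 0.264 elsewhere. This ratio lies within a library and does not depend on scaling, but it was not adjusted for length or GC content. It has no replicate in the f/f;Nestin-Cre group.

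**Figure D2:**
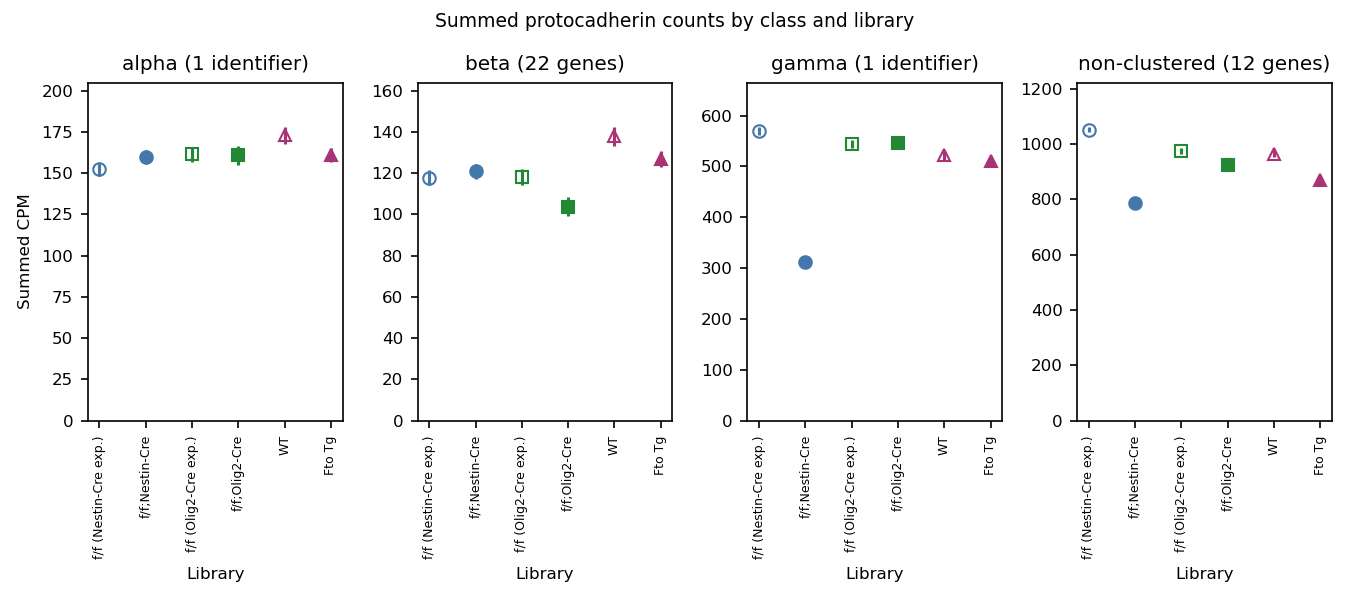
Summed CPM of each protocadherin class in the 6 libraries (open symbols, controls; filled symbols, altered libraries; bars, 95% Wilson intervals, which cover counting error only and are mostly smaller than the symbols). In f/f;Nestin-Cre the gamma identifier (313 CPM) and the non-clustered sum (785 CPM) lie below all other libraries, and in f/f;Olig2-Cre the beta sum (104 CPM) does.

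Differences between 2 libraries were tested read by read with the MARS method of DEGseq, and a gene was called at a false discovery rate (FDR) below 0.001 and a fold change of at least 1.2. With 1 library a group this compares libraries and not genotypes, and no difference within a pair has a replicate check. In the Nestin-Cre pair 16 of the 35 members tested were called, 6 higher and 10 lower, where 64.9% of all genes tested were called. By direction these were 11.5% higher and 53.4% lower, a split that became 28.5% and 30.1% with TMM scaling. The split of the members turned with it, to 17 higher and 2 lower (TMM), 18 and 2 (DESeq2 size factors) and 15 and 3 (adjusted for length and GC content). Against all 3 controls, 10 of 36 members lay above and 17 below their range in f/f;Nestin-Cre, where 17.6% of all genes lay above and 66.3% below. With TMM 23 members lay above and 3 below, where 38.5% of all genes lay above and 42.6% below. The Olig2-Cre pair had 6 members called, all lower (background 11.9%, made up of 4.95% higher and 6.91% lower). The Fto pair also had 6, all lower (background 15.5%, made up of 6.97% higher and 8.51% lower). With f/f of the Nestin-Cre pair as its control, f/f;Olig2-Cre had 3 members called higher and 6 lower (background 8.98% and 10.9%). Between controls, f/f of the Olig2-Cre pair had 1 member called higher and 2 lower than f/f of the Nestin-Cre pair (background 13.1%, made up of 6.11% higher and 7.01% lower). WT had 6 higher and 2 lower than the latter (background 17.3%, made up of 8.38% and 8.92%), and 1 higher and 0 lower than the former (background 7.20%, made up of 3.21% and 3.99%). The spread of the 3 controls then served as the error, a biological coefficient of variation (the SD of the level relative to its mean) of 0.133. With the exact test of edgeR (FDR 0.05 and fold of at least 1.2), 9 members were called with Nestin-Cre, where 55.3% of all genes were. In each of the other 5 pairs 0 were called, where 0.327% to 2.10% of all genes were. This spread includes differences between experiments and between f/f and WT. The pairs of controls were tested with their own spread.

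**Figure D3:**
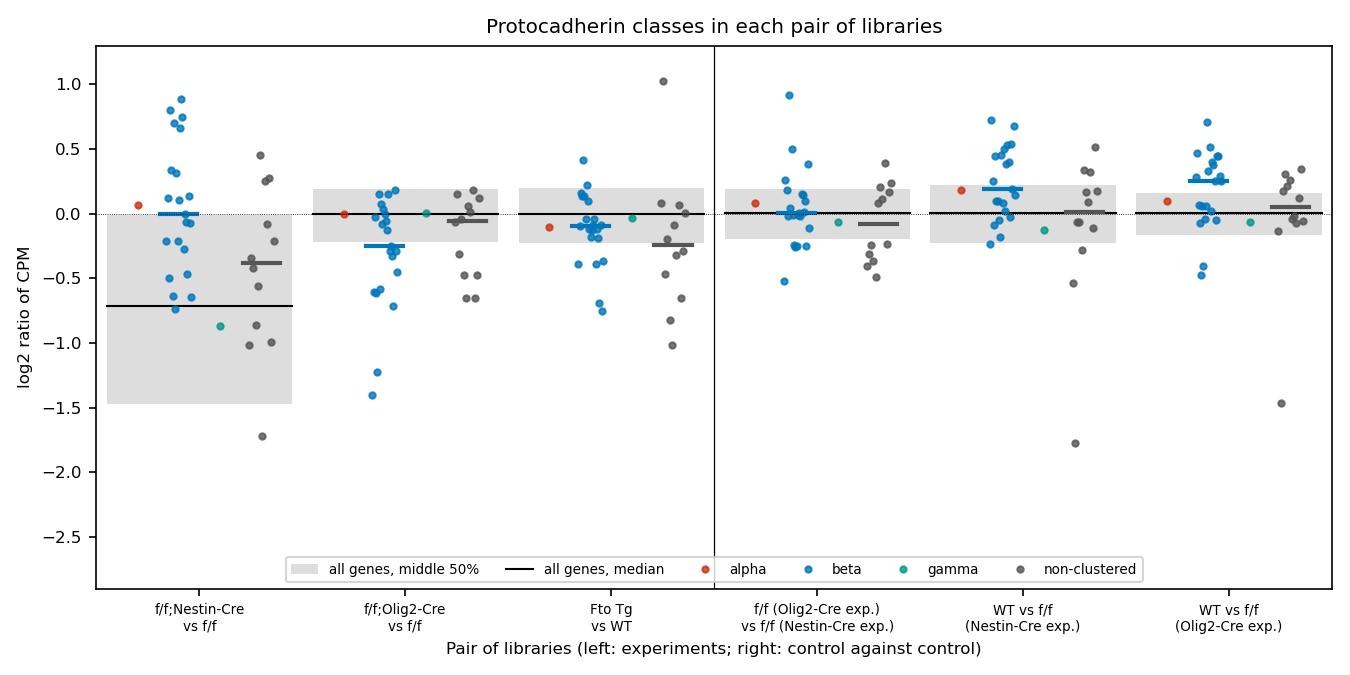
Log2 ratios of CPM for each tested member (points) by class in the 3 experimental pairs (left) and the 3 pairs of controls (right), with the class median (colored line), the median of all genes (black line) and their middle 50% (grey). The beta median is 0.00 against -0.72 for all genes in the Nestin-Cre pair, and -0.25 against -0.00 in the Olig2-Cre pair.

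In the Nestin-Cre pair the beta genes stayed level against the library total, where most genes stood lower. Their median log2 ratio was 0.00, with 11 of 21 genes above 0, against -0.38 for the non-clustered genes and -0.72 for all genes tested. Relative to the shift of all genes, the medians were 0.72 for the beta genes and 0.33 for the non-clustered genes, the alpha identifier stood at 0.78 and the gamma identifier at -0.15. Single-exon protein-coding genes outside the family had a median of -1.19 over 385 genes. They share the single exon of the beta genes but not their GC content or length. Over the 457 such genes with at least 10 counts in all, the medians were 52.6% GC and 1902 bases. The beta genes had medians of 46.0% GC and 3714 bases. Over all genes of the pair, the median log2 ratio was -0.99 at 52 to 54% GC and -0.40 at 44 to 46%.

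Within the cluster the beta genes did not move together. The largest called rise was that of Pcdhb14, which had 6.26, 6.27 and 6.35 CPM in the 3 controls, 5.75 and 5.99 CPM in f/f;Olig2-Cre and Fto Tg, and 11.6 CPM (10.5 to 12.8) in f/f;Nestin-Cre. Only the f/f;Nestin-Cre library stood away from a tight group of 5, a log2 ratio of 0.89 ± 0.12 (counting SE; MARS FDR 1.0e-13). Pcdhb5 (0.80), Pcdhb15 (0.75) and Pcdhb13 (0.66) were called higher too.

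Lower calls in the same cluster were Pcdhb9 (-0.73), Pcdhb22 (-0.65) and Pcdhb7 (-0.63), where with TMM scaling Pcdhb7 (0.050) and Pcdhb22 (0.038) turned above 0 and none of the 3 was called. Pcdhb9 had 10.7, 10.6 and 10.3 CPM in the controls, 11.2 CPM in f/f;Olig2-Cre, 12.1 CPM in Fto Tg and 6.42 CPM (5.63 to 7.31) in f/f;Nestin-Cre. That library lay below the other 5, which ran from 10.3 to 12.1 CPM. The count of Pcdhb14 per count of Pcdhb9, a pair chosen after its values were seen, was 0.586, 0.591 and 0.615 in the controls, 0.514 in f/f;Olig2-Cre, 0.496 in Fto Tg and 1.81 in f/f;Nestin-Cre, and no scaling of libraries can change it. The genes differ in length and GC content, with 8695 bases and 39.1% for Pcdhb14 and 3055 bases and 47.8% for Pcdhb9. Once adjusted for both, their log2 ratios in the Nestin-Cre pair were 0.85 and -0.048. With TMM scaling 11 beta genes were called higher and 0 lower, and once adjusted for length and GC content 10 and 0, where 28.5% and 27.7% of all genes were called higher and 30.1% and 27.7% lower.

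The abundant beta genes Pcdhb17 and Pcdhb20 had no call in the Nestin-Cre pair at library-total scaling. Pcdhb17 had 11.4, 12.7 and 15.1 CPM in the controls and 11.4, 10.6 and 13.9 CPM in f/f;Nestin-Cre, f/f;Olig2-Cre and Fto Tg. Pcdhb20 had 11.4, 9.58 and 13.0 CPM in the controls and 12.6, 10.9 and 12.2 CPM in the altered libraries. For both genes the controls spread more widely than most of the differences within pairs. Both were called higher with Nestin-Cre under TMM (0.69 and 0.82), under DESeq2 size factors and once adjusted for length and GC content (0.40 and 0.62), and Pcdhb20 also against the other f/f control (0.39).

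Among the constant-exon clusters, the alpha identifier had 152, 161 and 173 CPM in the controls and 159.7, 161 and 161 CPM in the altered libraries, all 3 inside the range of the controls. It was called in none of the 6 pairs at library-total scaling, and higher in the Nestin-Cre pair with TMM. The gamma identifier had 571, 544 and 522 CPM in the controls and 313, 546 and 510.1 CPM in f/f;Nestin-Cre, f/f;Olig2-Cre and Fto Tg. Its log2 ratio of -0.87 ± 0.02 (counting SE) in the Nestin-Cre pair was called lower, became 0.09 once adjusted for length and GC content, and differed from the median of all genes by less than that of any other class.

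Of the 12 non-clustered genes 8 were called in this pair, or 66.7%, close to the 64.9% of all genes. By direction 2 were higher and 6 lower (background 11.5% and 53.4%). Pcdh8 (arcadlin), a delta-2 protein induced by neuronal activity that draws N-cadherin away from synapses, had 49.4, 57.0 and 55.4 CPM in the controls, 59.2 CPM in f/f;Olig2-Cre and 52.3 CPM in Fto Tg, but 15.0 CPM (13.8 to 16.3) in f/f;Nestin-Cre. The f/f;Nestin-Cre library lay far below the rest, a log2 ratio of -1.72 ± 0.07 (MARS FDR 1.1e-148) and the largest fall among the members at library-total scaling. It was -1.03 with TMM, and -0.22 without a call once adjusted for length and GC content, where Pcdh11x (-1.33) fell further. Pcdh1 fell from 401 to 199 CPM (log2 ratio -1.01), with 303 and 276 CPM in the other controls and 289.5 and 292 CPM in f/f;Olig2-Cre and Fto Tg. The other controls of Pcdh1 were themselves called lower than f/f of the Nestin-Cre pair, by -0.40 and -0.54 on the log2 scale. Pcdh11x, an X-linked delta-1 gene, fell by 0.995 and Pcdh18, a delta-2 gene, by 0.86, while Pcdh7 fell by 0.56 and Pcdh10 by 0.42. Those last 2 turned above 0 with TMM scaling (0.13 and 0.26), where Pcdh11x (-0.31) was not called. Pcdh18 was not called with TMM (-0.18), with DESeq2 size factors (-0.14) or once adjusted for length and GC content (-0.45). Against the other f/f control Pcdh18 (-0.49), Pcdh7 (-0.066) and Pcdh10 (-0.18) were not called.

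Called higher were Pcdh15, best known as the tip-link protein of inner-ear hair cells (0.45 ± 0.10), and Pcdh9, a delta-1 gene (0.28 ± 0.03). Pcdh17, a delta-2 protein of presynaptic sites, stood at 112 and 133 CPM in this pair (0.25) and was not called at library-total scaling, but was called higher with TMM (0.94), DESeq2 size factors (0.97) and the adjustment (0.40). The epilepsy gene Pcdh19 (-0.21) and Pcdh20 (-0.083) had no call either. Both were called higher with TMM and DESeq2 size factors, and lower against the other f/f control.

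GC content differed between these members. Pcdh1 (60.7%) and Pcdh8 (59.3%) had the highest, the gamma identifier's longest M21 transcript had 54.3%, and the beta genes had 39.1% to 49.0%. Over all genes of the pair the median log2 ratio was -0.40 at 44 to 46% GC, -0.45 at 46 to 48% and -1.84 at 60 to 62%. Once adjusted for length and GC content the beta median was 0.55 and the non-clustered median 0.14, Pcdh1 turned to 0.46, Pcdh8 lost its call, and the difference between the beta and non-clustered medians was 0.41 against 0.38 without it. The part of GC content in the calls of single members was not tested further.

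**Figure D4:**
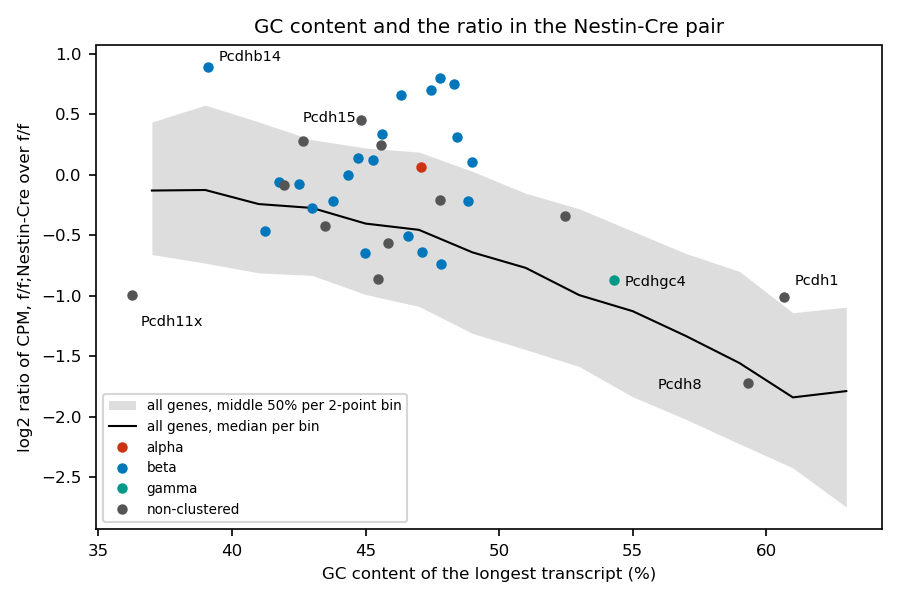
GC content of the longest transcript (%) against the log2 ratio of f/f;Nestin-Cre over f/f for the 35 tested members (points by class), with the median and middle 50% of all genes in bins of 2 points of GC. Of 21 beta genes, at 39.1% to 49.0% GC, 16 lie above the all-gene median of their bin, and Pcdh8 and Pcdh1 lie at the GC-rich end.

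In the Olig2-Cre pair the beta genes leaned lower, but 1 of them was called. The median log2 ratio was -0.25 over 21 beta genes, 16 of them below 0, against -0.05 for the non-clustered genes, -0.00 for all genes and 0.08 for 367 single-exon genes outside the family. The single-exon genes are richer in GC, and over all genes the median was 0.06 at 52 to 54% GC and -0.06 at 44 to 46%. With f/f of the Nestin-Cre pair as the control, the beta median was -0.14 and the non-clustered median -0.36, so the order of the classes turned. Over beta genes with at least 100 counts in the pair, the median was -0.10. Against all 3 controls, 14 of 22 beta genes lay below and 2 above the range, where 29.1% of all genes lay below and 28.7% above. This is the shallowest library, and Pcdhb2 (12 counts, 0.645 CPM against 1.76 to 2.54 CPM in the controls) and Pcdhb6 (12 counts) did not pass the FDR.

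Pcdhb19 was the called beta gene, and it was called lower in the Fto pair as well. It had 6.59, 7.06 and 9.60 CPM in the controls, 4.78 CPM in f/f;Nestin-Cre, 4.30 CPM (3.45 to 5.35) in f/f;Olig2-Cre and 5.96 CPM (5.20 to 6.83) in Fto Tg. All 3 altered libraries lay below all 3 controls at library-total scaling. Its log2 ratio with Nestin-Cre, -0.46, was 0.25 relative to the shift of all genes. Of the controls, WT stood well above both f/f libraries and was called higher than f/f of the Nestin-Cre pair (0.54). Its log2 ratio was -0.71 ± 0.18 in the Olig2-Cre pair and -0.69 ± 0.14 in the Fto pair (MARS FDR 3.7e-04 and 2.4e-06). Once adjusted for length and GC content it was called in neither. Against the other f/f control it was not called with Olig2-Cre (-0.61).

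The non-clustered calls of the Olig2-Cre pair were Pcdh9, Pcdh15, Pcdh11x, Pcdh7 and Pcdh10. Those of the Fto pair were Pcdh15, Pcdh7, Pcdh9, Pcdh10 and Pcdh17. The 2 pairs share no library.

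Pcdh9 had 89.8, 76.5 and 83.0 CPM in the controls, 48.7 CPM (45.7 to 52.0) in f/f;Olig2-Cre and 52.9 CPM (50.6 to 55.4) in Fto Tg, but 109 CPM in f/f;Nestin-Cre. Thus 2 altered libraries lay below the range of the controls and 1 above it. Of all genes, 29.1% lay below in f/f;Olig2-Cre, 29.7% below in Fto Tg and 17.6% above in f/f;Nestin-Cre. Its log2 ratio was -0.65 ± 0.05 in each of the Olig2-Cre and Fto pairs, and it was the member still called lower in both once adjusted for length and GC content.

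Pcdh15 had 11.2, 11.8 and 14.1 CPM in the controls, 7.52 CPM (6.37 to 8.87) in f/f;Olig2-Cre, 6.99 CPM (6.17 to 7.93) in Fto Tg and 15.3 CPM in f/f;Nestin-Cre. It took the same positions around the controls as Pcdh9. The log2 ratios were -0.65 ± 0.14 in the Olig2-Cre pair and -1.01 ± 0.12 in the Fto pair, the second being the only fold of at least 2 among the called members of that pair.

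Pcdh7, a delta-1 protein that binds protein phosphatase 1, had 41.9, 29.7 and 34.5 CPM in the controls, 28.4 CPM in f/f;Nestin-Cre, 21.4 CPM in f/f;Olig2-Cre and 19.5 CPM in Fto Tg. Every altered library lay below every control at library-total scaling, but in the Nestin-Cre pair Pcdh7 stood 0.16 above the shift of all genes, and the 2 f/f libraries differed by -0.49 on the log2 scale, as much as the Olig2-Cre pair (-0.47). The log2 ratio of the Fto pair was -0.83 ± 0.07. Once adjusted for length and GC content Pcdh7 (-0.30) and Pcdh15 (-0.35) were not called with Olig2-Cre.

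Pcdh10, which links to the WAVE complex of actin regulators through Nckap1, had 134, 113 and 128 CPM in the controls, 99.97 CPM in f/f;Nestin-Cre, 91.2 CPM in f/f;Olig2-Cre and 92.9 CPM in Fto Tg. It too was below the controls in all 3 altered libraries at library-total scaling, though 0.29 above the shift of all genes with Nestin-Cre. The log2 ratios were -0.31 ± 0.04 in the Olig2-Cre pair and -0.46 ± 0.04 in the Fto pair, and both calls were lost once adjusted (-0.050 and -0.15). Pcdh17 stood at 112, 121 and 119 CPM in the controls, at 95.4 CPM in Fto Tg (-0.32 ± 0.04, or -0.069 without a call once adjusted) and at 122 CPM in f/f;Olig2-Cre, and Pcdh11x was called in the Olig2-Cre pair (-0.48, and -0.16 without a call once adjusted) but not in the Fto pair (-0.29).

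**Figure D5:**
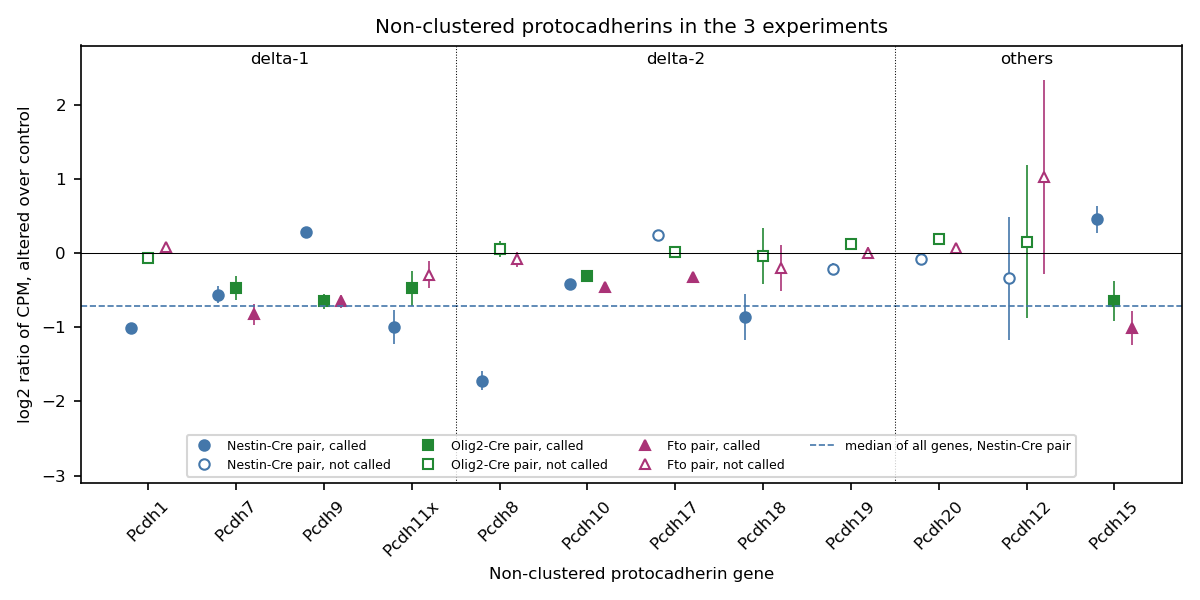
Log2 ratios (altered over control) of the 12 non-clustered protocadherins in the 3 experiments, grouped as delta-1, delta-2 and others, with filled symbols for called genes and bars of 95% counting intervals. Pcdh7, Pcdh9, Pcdh10 and Pcdh15 are called lower in both the Olig2-Cre and the Fto pair, while Pcdh9 (0.28) and Pcdh15 (0.45) lie above 0 in the Nestin-Cre pair.

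Among the non-clustered genes called in these pairs, Pcdh15 spans 1550 kb, Pcdh9 877 kb, Pcdh11x 620 kb and Pcdh7 415 kb, against 57.2 kb for Pcdh10, 95.4 kb for Pcdh17, a median of 76.3 kb over the non-clustered genes and 3.71 kb for the median beta gene. Across the 12 non-clustered genes, as a description, Spearman's rho between gene span and log2 ratio was -0.78 for Olig2-Cre, -0.71 for Fto Tg and 0.50 for Nestin-Cre. Over all genes it was -0.21, -0.28 and 0.23. The points of a pair share its 2 libraries, and the part of gene span in the calls was not tested.

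Oligodendroglial markers moved in these pairs too. Their summed level was 8487, 7443 and 8572 CPM in the controls, 5089 CPM in f/f;Nestin-Cre, 6134 CPM in f/f;Olig2-Cre and 9971 CPM in Fto Tg. Of 10 markers, the Nestin-Cre pair had 9 called lower (background 53.4%). The Olig2-Cre pair had 6 lower and 1 higher (6.91% and 4.95%), and the Fto pair 2 lower and 4 higher (8.51% and 6.97%). Pdgfra, the receptor that marks oligodendrocyte precursors and was picked here after its values were seen, was called lower in all 3 pairs, by -0.71, -0.41 and -0.41 on the log2 scale, the first of these close to the median of all genes in its pair (-0.72). The median of the 10 markers in the Fto pair was 0.25. Markers of the choroid plexus, the tissue that makes cerebrospinal fluid, summed to 2824, 2132 and 1607 CPM in the controls, and to 256 CPM in f/f;Nestin-Cre (4 of 4 called lower), 3343 CPM in f/f;Olig2-Cre (2 called higher) and 677 CPM in Fto Tg (4 of 4 called lower). Blood markers had 4 of 4 called lower with Nestin-Cre. The same backgrounds hold for the choroid plexus and blood counts. The part of these markers in the values of the members was not tested.

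The promoters of the 4 non-clustered genes called lower in both the Olig2-Cre and Fto pairs are shown because these genes moved in the same direction there. In the Nestin-Cre pair Pcdh9 and Pcdh15 were called higher and Pcdh7 and Pcdh10 lower. Pcdhb19, a beta gene called lower in both pairs, is not printed. Of the members, 9 had an entry in the RefSeq promoter table (GRCm38.p6). Each sequence is the 250 bases before the RefSeq start, read 5′ to 3′ on the strand of the gene, with CG dinucleotides, the sites of DNA methylation, in capitals. Pcdh10 lies at chr3:45378148-45378397 (plus strand) and Pcdh9 at chr14:93890680-93890929 (minus strand, the first of 2 listed starts). Pcdh7 lies at chr5:57717831-57718080 (plus strand) and Pcdh15 at chr10:73821617-73821866 (plus strand). Both of these starts are inside the span of the M21 gene. The M21 gene of Pcdh7 begins at 57717967, within the window shown.
Pcdh10: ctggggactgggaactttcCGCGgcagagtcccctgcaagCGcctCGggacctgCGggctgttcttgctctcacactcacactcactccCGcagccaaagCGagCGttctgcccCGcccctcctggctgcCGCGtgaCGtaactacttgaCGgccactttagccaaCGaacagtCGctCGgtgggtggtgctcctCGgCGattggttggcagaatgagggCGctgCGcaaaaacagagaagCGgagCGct
Pcdh9: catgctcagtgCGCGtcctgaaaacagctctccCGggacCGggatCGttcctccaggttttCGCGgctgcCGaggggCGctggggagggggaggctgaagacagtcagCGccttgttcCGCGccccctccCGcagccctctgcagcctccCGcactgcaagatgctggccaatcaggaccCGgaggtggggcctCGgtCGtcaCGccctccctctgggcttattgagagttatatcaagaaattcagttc
Pcdh7: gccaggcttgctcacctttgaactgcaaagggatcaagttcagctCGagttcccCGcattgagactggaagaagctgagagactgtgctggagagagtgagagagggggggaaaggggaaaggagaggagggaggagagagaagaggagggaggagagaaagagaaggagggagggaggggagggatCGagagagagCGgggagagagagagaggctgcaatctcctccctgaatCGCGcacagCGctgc
Pcdh15: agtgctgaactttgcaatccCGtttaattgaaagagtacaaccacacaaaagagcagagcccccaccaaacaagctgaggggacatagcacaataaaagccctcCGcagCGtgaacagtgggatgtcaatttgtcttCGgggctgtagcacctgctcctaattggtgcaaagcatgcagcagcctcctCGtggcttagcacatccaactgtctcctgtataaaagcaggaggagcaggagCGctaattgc

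The motif searched was CG, whose reverse complement is itself, so that both strands hold the same sites. It occurred 22 times in the Pcdh10 window, 18 times in that of Pcdh9, 7 times in that of Pcdh7 and 6 times in that of Pcdh15, against a median of 6 over 32851 promoters of the same length. As many or more sites were found in 14.8%, 21.7%, 46.3% and 50.4% of all promoters. A count of letters says nothing of their methylation.

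In the Fto pair the beta genes differed little from the rest. Their median log2 ratio was -0.09, with 15 of 21 below 0, against -0.25 for the non-clustered genes, -0.01 for all genes and 0.07 for 391 single-exon genes outside the family. Over all genes the median was 0.06 at 52 to 54% GC and -0.09 at 44 to 46%. The beta sum in Fto Tg (127 CPM) lay between the f/f and WT values. Against all 3 controls, 6 beta genes lay below and 4 above, and 5 of 12 non-clustered genes lay below and 0 above, where 29.7% of all genes lay below and 27.3% above. Once adjusted for length and GC content the non-clustered median was -0.09, and Pcdh7, Pcdh9 and Pcdh15 were the members still called.

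Between control libraries the beta genes stood higher in WT. Their median log2 ratio was 0.19 against f/f of the Nestin-Cre pair and 0.25 against f/f of the Olig2-Cre pair, both comparisons using the same WT library, and 0.00 between the 2 f/f libraries. The non-clustered medians were 0.01, 0.05 and -0.08, and those of all genes 0.00 in each. Of 21 beta genes, 4 were called higher in WT than in f/f of the Nestin-Cre pair (Pcdhb3, Pcdhb19, Pcdhb16 and Pcdhb17, by 0.73 to 0.40), where 8.38% of all genes were called higher, and 1 (Pcdhb11, 0.71) than in f/f of the Olig2-Cre pair. The f/f libraries differed in 0 beta genes by the MARS test. Genotype, experiment and library cannot be told apart here. The shift of the beta genes between controls was thus of the size of that in the Olig2-Cre pair.

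Replicates existed in 1 contrast, both Cre libraries against both f/f libraries. It called 0 of 35 members with edgeR's quasi-likelihood test at an FDR of 0.05 (background 0%, 0 of 16921 genes), and 0 members had an unadjusted p below 0.05, against 0.845% of all genes. DESeq2 also called 0 members. This contrast finds only changes shared by both drivers, and members such as Pcdh9 and Pcdh15 lay on opposite sides of the controls in the 2 Cre libraries. With the f/f;Nestin-Cre library alone against both f/f libraries, where the lone library is assumed to vary like the f/f libraries, 15 members were called, 14 higher and 1 lower, on the TMM scale (background 47.8%). The higher ones included 10 beta genes, led by Pcdhb14 (1.59, edgeR FDR 2.4e-04), the alpha identifier (0.73), Pcdh15 (1.12), Pcdh9 (1.09) and Pcdh17 (0.90), and the lower one was Pcdh8 (-1.12). With the f/f;Olig2-Cre library alone, 0 members were called (background 0.0115%), and Pcdh9 (-0.77), Pcdh7 (-0.74), Pcdh15 (-0.61), Pcdh10 (-0.44), Pcdhb2 (-1.73) and Pcdhb19 (-0.66) had an unadjusted p below 0.05, as did 7.40% of all genes.

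Of 33 partners and regulators of protocadherins, the Nestin-Cre pair had 8 called higher and 14 lower (background 11.5% and 53.4%), the Olig2-Cre pair 0 and 6 (4.95% and 6.91%), and the Fto pair 1 and 6 (6.97% and 8.51%). Their median log2 ratios were -0.14, -0.06 and -0.12, against -0.72, -0.00 and -0.01 for all genes. Of 14 genes for promoter choice and chromatin of the clusters, 5 were called lower in each of the Olig2-Cre and Fto pairs and 0 higher. Nipbl, which loads cohesin, was called higher in the Nestin-Cre pair (1.13) and lower in the others (-0.27 with Olig2-Cre and -0.46 with Fto Tg). Stag2, a cohesin subunit, was called lower in the Olig2-Cre and Fto pairs (-0.36 and -0.28), as was Smchd1, a chromatin protein that acts on the clusters (-0.26 and -0.40). Dnmt3a, a DNA methyltransferase, was called lower in the Nestin-Cre (-1.03) and Olig2-Cre (-0.52) pairs, and Wiz, a zinc-finger partner of chromatin loops, in the same pairs (-0.50 and -0.28). Stag1, another cohesin subunit, was called lower with Nestin-Cre (-0.26) and Fto Tg (-0.31). In the Nestin-Cre pair Stag1 and Wiz nevertheless lay above the median of all genes (-0.72), whereas Dnmt3a lay below it. Of the other cohesin subunits listed, Smc1a (1.82) and Smc3 (1.91) were called higher in the Nestin-Cre pair. Rad21 (-0.084) and Stag2 (0.19) were not called there. Wapl, which releases cohesin (0.44 and -0.29), and Nlgn1, a postsynaptic adhesion protein (1.41 and -0.30), were called higher with Nestin-Cre and lower with Fto Tg. Brk1, a small WAVE-complex subunit, was called lower in the Nestin-Cre pair (-3.28) and higher in the Fto pair (0.35).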

How the data were processed

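RNA-seq of mouse hippocampus was available for 6 libraries, 1 per group, grouped by the genotype labels. The deposited values were raw read counts for each gene, in whole numbers. Per the study's methods, the authors trimmed reads, aligned them to mm10 with TopHat, kept uniquely mapped reads and counted them with HTSeq in union mode, without strand, on Ensembl release 68. The submitters' processing notes list TopHat2 2.0.9 and HTSeq 0.6. Reads overlapping several genes were not counted, which removes reads between overlapping or near-identical members. The methods describe paired reads, whereas the labels do not settle single or paired.

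GENCODE M21 (GRCm38) gave symbols, positions and exon lengths, and GC content was that of each gene's longest transcript. Counts were scaled by the library total, 18616540 to 35482589, to CPM. RPKM used the union of exons. Wilson 95% intervals and the floor of 3 counts cover counting error only, because PCR copies are not independent molecules. The MARS test of DEGseq was programmed in Python 3.11.15 (numpy 2.4.6, pandas 2.3.3, scipy 1.17.1, statsmodels 0.14.6) with 0.5 added to each count, on genes with at least 10 counts over a pair, with Benjamini-Hochberg FDR below 0.001 and a fold of at least 1.2, after the study. The Cre contrast used edgeR 4.0.16 in R 4.3.3 (quasi-likelihood, TMM, filterByExpr, FDR 0.05), with DESeq2 1.42.0 as an alternative. All tests ran on the whole table and were tested on simulated data. Alternatives were TMM and DESeq2 size factors, a smooth adjustment for GC content and exon length, the other f/f library as control, filters of 1 and 100 counts, a fold of 2, an exact test using the controls' dispersion, and leaving out libraries.

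The members and lists were chosen with earlier results of these data known. Named were the most abundant members of each class, the called members with the largest rise and fall in each class and pair, and others on which a result turned, together with Prrc2a, Fto and partners called in at least 2 experimental pairs. Outside this rule, Pdgfra, Smc1a, Smc3 and Rad21 were named after their values were seen.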

Additional observations from a re-analysis of the deposited data

Results flagged for a closer look

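Pcdh9 and Pcdh15 were called in opposite directions in the 2 deletions of Prrc2a. The log2 ratio of Pcdh15 was 0.45 in the Nestin-Cre pair and -0.65 in the Olig2-Cre pair, and that of Pcdh9 was 0.28 and -0.65. Each side is 1 library, and the difference between the deletions was not tested.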

How the results depend on the processing

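At a fold of at least 2, the members called in the Nestin-Cre, Olig2-Cre and Fto pairs were 2, 0 and 1 (38.9%, 0.840% and 1.11% of all genes), and 0 in each pair of controls (0.970% to 2.56%). With the exact test of edgeR and the dispersion of the controls they were 9, 0 and 0 (55.3%, 0.327% and 0.571%), and 0 in each pair of controls (0.554% to 2.10%). After adjustment for GC content and length, 3 members were called in each of the Olig2-Cre (2 higher, 1 lower) and Fto pairs (6.92% and 9.21% of all genes), 5 between the f/f libraries, 5 for WT against f/f of the Nestin-Cre pair and 0 for WT against f/f of the Olig2-Cre pair (10.7%, 10.8% and 6.25%). In the last pair TMM and no filter on low counts also gave 0, and at least 100 counts gave 2.

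In the Nestin-Cre pair the beta median of 0.00 became 0.69 (TMM), 0.72 (DESeq2 size factors) and 0.55 (adjustment). The non-clustered median of -0.38 turned to 0.30, 0.33 and 0.14 under these, and was -0.31 with the other f/f control, -0.42 at 100 counts and -0.21 over members overlapping no other gene. TMM moved the log2 ratio of the summed CPM from 0.04 to 0.72 for the beta genes and from -0.42 to 0.26 for the non-clustered genes, which was -0.15 without the most abundant member, Pcdh1. Single members above 0 with TMM and DESeq2 size factors were Pcdhb7 (0.050 and 0.081), Pcdhb22 (0.038 and 0.069), Pcdh10 (0.26 and 0.29) and Pcdh7 (0.13 and 0.16). Above 0 after the adjustment were the gamma identifier Pcdhgc4 (0.087) and Pcdh1 (0.46). By construction TMM and DESeq2 size factors move all ratios of a pair by 1 amount. The causes of the other changes were not tested.

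In the Olig2-Cre pair the non-clustered median of -0.05 was -0.028 (DESeq2 size factors), -0.021 (adjustment) and -0.36 with the other f/f control, which also turned the beta minus non-clustered difference from -0.20 to 0.22, Pcdhb20 from 0.18 to -0.071 and Pcdhgc4 from 0.00 to -0.064. In the Fto pair the non-clustered median of -0.25 was -0.22 (TMM), -0.21 (DESeq2 size factors), -0.089 (adjustment) and -0.29 at 100 counts, and the log2 ratio of the non-clustered sum went from -0.15 to -0.26 without Pcdh1. Between controls the non-clustered median of -0.08 (f/f against f/f) was -0.17 after the adjustment and 0.079 at 100 counts. That of 0.01 (WT against f/f of the Nestin-Cre pair) was -0.045 and 0.093, and that of 0.05 (WT against f/f of the Olig2-Cre pair) was 0.12 at 100 counts.

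Leaving out controls 1 at a time, members outside their range numbered 21 to 25 in Fto Tg (16 with all 3, and 25 without WT), 29 to 32 in f/f;Nestin-Cre and 28 to 31 in f/f;Olig2-Cre. A narrower range by construction leaves more members outside. Leaving out 1 library of the Cre contrast called 0 to 15 members, with 15 only without f/f;Olig2-Cre. The labels give no replicate numbers, and with the experiment as a block for pairing the Cre contrast called 0 members, as without it. Of the other values, 45 counts stayed within 1.5 times, though those of the Nestin-Cre pair changed their split. In the Olig2-Cre pair the other f/f control also changed it, from 0 higher and 6 lower to 3 and 6. Pcdhb19 (-0.61) and Pcdh11x (-0.31) were not called there. Of the other class medians and sums, 75 kept their sign and 7 changed it while moving by less than the spread. Of 115 values of single members that crossed no threshold, 8 changed sign. Single members lost a call without changing sign 27 times and gained one 14 times. A further 12 values of single members turned to the other side of 0, and most of these lost a call too. At 1 library a group no result has a replicate check within its pair.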
